A study of Mus musculus with 36 samples.

Results

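The regions described here are short stretches of mouse exons, other than exon number 1, in which an eCLIP experiment on the testicular RNA helicase D1PAS1 recorded cross-links. The deposited tables cut every annotated gene into overlapping windows of up to 50 nt and list a window where at least 1 cross-link was counted. A window was a member when its Ensembl mouse gene feature was an exon of number 2 or more and its window number was divisible by 3, which leaves windows that do not overlap. There were 326511 such later-exon windows in 27189 genes, of 2494551 windows of all gene regions chosen by the same spacing. The others were 84506 windows of exon number 1 and 2083534 windows of introns. The last listed exon of a gene held 128587 of the members.

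The study concerns mouse testis, with cells labelled as male germ cells. The 6 eCLIP libraries all carry the genotype label KI, which the labels do not define, and came from UV cross-linked testis. They are 3 immunoprecipitates (IP 1 to 3) and 3 size-matched inputs (input 1 to 3), and no IP without the KI allele was used here. The labels give no age for them and do not say that replicates came from separate animals. The p-values therefore measure the spread between these libraries, which may be technical. RNA-seq of 3 wild-type (WT) and 3 D1Pas1 knockout (KO) testes at postnatal day 18 and again at postnatal day 28 served as a second readout of the same genes.

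D1PAS1 is the autosomal testis member of the DDX3 group of DEAD-box helicases, enzymes that use ATP to open short RNA duplexes and to remodel RNA-protein complexes. The DDX3 proteins are known for work in translation initiation and in RNA granules, and male germ cells store many messenger RNAs in such granules until spermatids need them. In eCLIP, ultraviolet light ties a protein to the RNA it touches, the protein is precipitated, and the reverse transcriptase stops at the tied base. The size-matched input is cut from the same gel region without precipitation and records what cross-linked RNA of that size looks like before enrichment.

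The share of counts in later exons overlapped between IP and input, while single windows in exons of genes such as Eif3c, Cfap65 and Eef2 differed by more than 100-fold. The IP libraries held 142435, 137231 and 99602 counts in windows of all regions, and the inputs held 260087, 2714237 and 3635415. A single count was therefore worth between 7.02 and 10.04 CPM in an IP (CPM is the usual depth-scaled count), 3.84 CPM in input 1 and 0.368 and 0.275 CPM in inputs 2 and 3. Of the members, 32943 (10.1%) had a count in any IP, 306568 (93.9%) in any input, 1238 in all 3 IPs and 143 in all 6 libraries. Log-CPM values of libraries correlated at 0.74 to 0.81 among IPs, 0.89 to 0.97 among inputs and 0.20 to 0.52 between an IP and an input. These are a description over 3995 sums of windows per gene and region (exon 1, later exons or introns), not over single windows.

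Exons of number 2 or more held 14.3%, 12.6% and 15.99% of the counts of IP 1, 2 and 3, and 13.3%, 14.5% and 12.8% of those of the 3 inputs. The groups overlapped, and their means of 14.3% ± 1.69 and 13.5% ± 0.850 (SD, n = 3) were not told apart by the two-sided exact permutation test (p = 0.7; 3 against 3 libraries cannot go below 0.10). The difference of 0.807 percentage points was -0.0289 without IP 3 and 1.66 without IP 2. The log2 ratio of later exons to introns was -2.44 in the IPs and -2.59 in the inputs (exact p = 0.4). Against exon number 1, later exons were lower in every IP than in every input, with a log2 ratio of 0.79 ± 0.15 in the IPs and 1.37 ± 0.18 in the inputs (SD, n = 3; exact p = 0.1). That last difference of -0.58 shrank to -0.36 when cross-linked positions were counted in place of cross-links.

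The share of later-exon counts was then compared by exon number. Exon 2 took 14.0% of later-exon counts in the IPs and 12.6% in the inputs, exons 6 to 10 took 25.1% and 24.3%, and exons 11 or more took 35.6% and 35.9%. Exons 4 and 5 took 14.7% ± 0.152 in the IPs and 16.2% ± 0.140 in the inputs (SD, n = 3), with no overlap between groups. Exon 3 was also lower in every IP, at 10.49% against 11.1%. None of the 5 classes could pass the exact permutation test at this size, and the adjusted p was 0.25 for 4 classes and 0.7 for exons 11 or more. Counting cross-linked positions turned the exon 3 difference of -0.575 percentage points to 0.254.

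Last listed exons were lower relative to the inner later exons of the same genes in every IP. In genes whose last listed exon was number 3 or higher, the log2 ratio of last to inner counts was -1.11, -1.07 and -1.40 in IP 1 to 3. In the inputs it was -1.01, -0.97 and -0.95. The means of -1.19 ± 0.18 and -0.98 ± 0.03 (SD, n = 3) differed by -0.22, and the groups did not overlap (exact p = 0.1, the smallest the design allows). Without IP 3 the difference was -0.113. Of all 43069 genes with a listed exon, compared here or not, 3379 (7.85%) had an intron listed after the last listed exon. In those the true last exon had no count and the last listed exon is not the last of the gene.

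**Figure D1:**
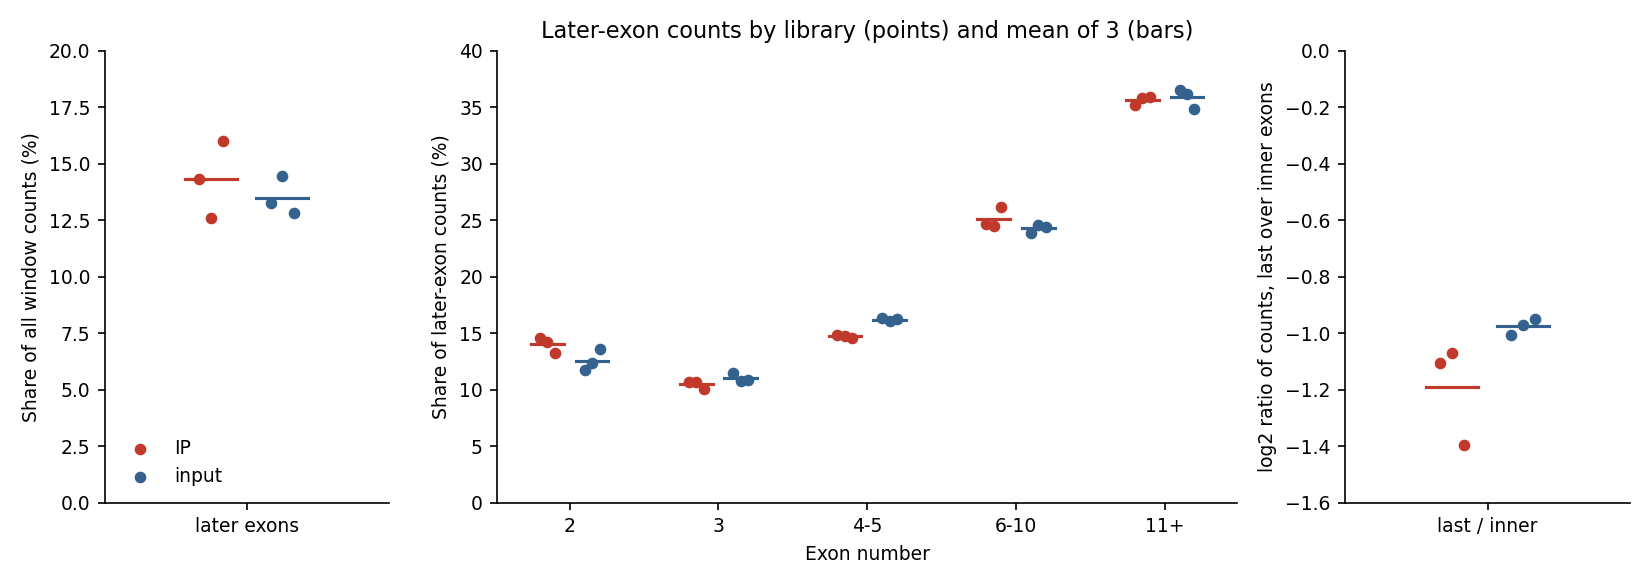
Share of counts of each library in the later-exon classes and the log2 ratio of last to inner exons, with 1 point per library and a bar at the group mean. IP and input points overlap for the share in later exons (14.3% and 13.5% on average), while exons 4 to 5 and the last-to-inner ratio separate the groups.

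Single windows showed much larger differences. Of the members, 126 had enough counts to be tested (a mean of at least 49.7 CPM over the 6 libraries, which is 10 counts in a library of median size). By edgeR's quasi-likelihood test with Benjamini-Hochberg adjustment over 661 windows of all regions, 61 later-exon windows in 53 genes were higher in the IP and 54 in 54 genes were lower. These are 48.4% and 42.9% of the tested members, beside 35.4% of all tested windows higher and 56.7% lower. A window could reach the minimum through 1 group alone, and then its mean CPM had to be higher in that group. Of the tested windows, 60 reached that level in the IPs alone and all 60 were higher, while 49 reached it in the inputs alone and 46 were lower. Among the 17 that reached it in both groups, 1 was higher, 8 were lower and 8 were not called. The calls are read as a list of places, not as a share of exons.

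The count minimum followed the median library total, so leaving out a library also changed how many windows were tested. The number of higher windows stayed between 48 and 77. Lower windows numbered 83 of 178 tested without IP 1, 87 of 190 without IP 2 and 74 of 174 without IP 3. They numbered 21 of 73 without input 1, 29 of 87 without input 2 and 35 of 91 without input 3. The median of all tested windows was -1.92 (log2), and DESeq2's size factors moved it by 1.23, so a fold change of a window is relative to that centre.

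The windows of named genes with the largest rises are given first for translation factors and for genes of cilia and sperm tails, with Eef2, Odf1 and Hspa2 added from those lists, and then for the others. Eif3c (chr7:126546911-126566366; gene coordinates here and below are RefSeq's on GRCm38.p6) encodes a core subunit of the initiation factor eIF3. Its exon 16 held 19, 17 and 19 counts in IP 1 to 3 and 0 in each input in window 69. With a floor of 3 counts over the 3 inputs, window 69 was at least 319.5-fold higher in the IP (adjusted p = 1.09e-12, edgeR). Window 66 of the same exon held 31, 29 and 24 counts in the IPs and 0, 7 and 4 in the inputs, 133-fold higher. Both windows were high in each of the 3 IPs and near empty in each input.

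Eif3a (chr19:60761116-60790693), the largest eIF3 subunit, held 19, 20 and 19 IP counts in window 495 of exon 14 and 1 count in all inputs together. Eef2 (chr10:81176631-81182509), the elongation factor that moves the ribosome along messenger RNA, held 28, 21 and 22 IP counts in window 201 of exon 9 against 0, 2 and 1. The ratio of CPM over the pooled libraries was 1011 for Eif3a, with a 95% counting interval of 174.4 to 40604.2, and 412.5 for Eef2, with an interval of 135.5 to 2048. Intervals and floors cover counting error only. IP and input libraries did not overlap at either window.

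Among genes of cilia and sperm tails, Cfap65 (chr1:74902071-74935626), needed for sperm flagella, held 40, 34 and 26 IP counts in window 180 of exon 26 against 0, 2 and 0 in the inputs. Its neighbouring exon 25 was also called, with 10, 14 and 20 counts against 0, 1 and 1 in window 192. Cfap45, a protein of the inside of ciliary microtubules, held 29, 26 and 24 IP counts in window 987 of exon 12 and 1 input count in all. Odf1 (chr15:38219203-38226735) encodes an outer dense fibre protein of the sperm tail. Window 348 of its exon 2 held 34, 25 and 20 IP counts and 0, 6 and 1 input counts, a difference of 7.53 ± 0.50 on the log2 scale (± SE). In each of these genes, all IP libraries were above all inputs.

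Hspa2 (chr12:76403812-76406938), the chaperone of meiotic and later male germ cells, had 2 enriched windows in exon 2, its last listed exon. Window 93 held 21, 17 and 19 counts in the IPs and 1, 6 and 12 in the inputs, and window 96 held 18, 17 and 13 against 0, 11 and 24. Both had input counts in inputs 2 and 3, and the pooled CPM was 52.3-fold and 23.9-fold higher in the IP.

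The other named higher windows were in genes of varied function. Usp40, a deubiquitinase, had 33, 27 and 21 IP counts in window 27 of its last listed exon, number 31, and 1 count in the inputs together. Smg1, the kinase that starts nonsense-mediated decay, had 21, 20 and 23 in window 1446 of exon 41 against 0, 1 and 0. Hnrnpul2, an hnRNP U-like RNA-binding protein, had 11, 7 and 19 in window 333 of exon 9 and none in the inputs. These 3 windows were each covered in every IP and in at most 1 input.

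Acsbg2, an acyl-CoA synthetase of the testis, had 2 higher windows in exon 12, with 45, 40 and 37 counts against 0, 0 and 4 in window 171. Ddt, a relative of the cytokine MIF, had 25, 14 and 20 in window 78 of exon 2 against 0, 1 and 0. The same 6 counts stand in a window of Gm20441, a gene model that overlaps Ddt, so those cross-links are listed under both names. Of the 61 higher windows 2 had such a twin, and of the 54 lower windows 0 had one.

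Jup, the junction protein plakoglobin, was higher in window 624 of exon 6 with 26, 12 and 13 IP counts and none in the inputs. Its counts lay on at most 2 positions of the window in any IP, at 12.75 counts per position. In Eif3c window 69 the counts lay on up to 17 positions, at 1.15 per position. Of the 61 higher windows, 36 had at least 15 cross-linked positions in an IP, and 10 had at most 3 positions, among them Jup, Gje1, Hr, Ly86, Zbtb7b, Zfp422 and Tbr1.

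**Figure D2:**
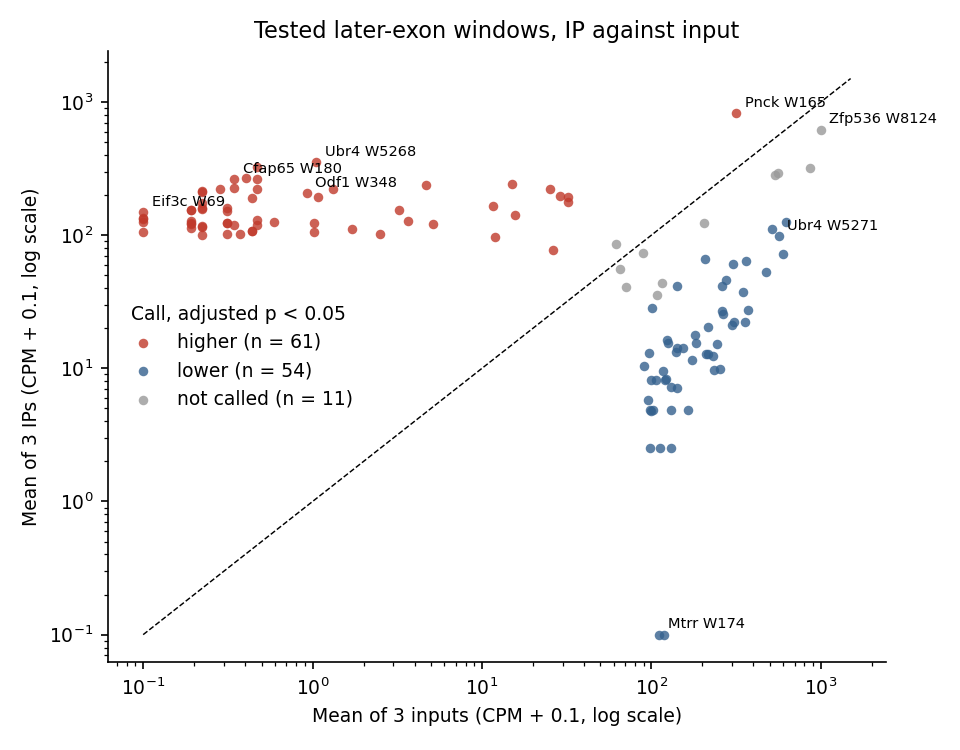
Mean of the 3 IPs against mean of the 3 inputs (CPM + 0.1, log axes) for each of the 126 tested later-exon windows, coloured by call, with the line of equal level dashed and some windows labelled. Most of the 61 higher windows sit at the left, near 0 in the inputs, and the 54 lower windows sit below the dashed line.

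Higher and lower windows differed in form when read in raw counts. The higher windows had a median of 16 cross-linked positions in their fullest IP (range 1 to 35) and a median of 1.28 counts per position in the IPs. Input 1 had no count in 46 of the 61, and all inputs were at 0 in 5. The lower windows had a median of 786.5 input counts stacked at 24.4 counts per position on a median of 13 positions. In 52 of 54 lower windows the fullest input had between 7 and 16 positions. Their IP counts had a median of 5.5, and 2 windows had none. Counts per position were not scaled for depth, and the inputs together held 17.4 times the counts of the IPs. A window therefore needed more counts to reach the minimum in the inputs than in the IPs, and the 2 forms are not compared at like depth.

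The largest falls were in genes with no shared role. Mtrr (chr13:68560780-68582169), methionine synthase reductase, had no IP count and 38, 326 and 244 input counts in window 174 of exon 14, at least 11.6-fold lower with a floor of 3 counts over the IPs (adjusted p = 9.39e-07, edgeR). Bend4 had 0, 1 and 0 IP counts and 52, 317 and 276 input counts in window 351 of exon 5. Zfp638, an RNA-binding zinc finger protein, had 0, 1 and 0 against 48, 241 and 223 in window 5886 of exon 28. The input counts were high in each of the 3 inputs, and the IPs held at most 1 count.

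Cep350, a centrosomal protein, had 0, 1 and 0 IP counts against 39, 255 and 185 in window 4419 of exon 10. Rabl6, a RAB-like GTPase, had 1, 1 and 0 against 68, 407 and 309 in window 45 of exon 13. Of these 5 windows, 3 were in the last listed exon (Bend4, Zfp638 and Rabl6).

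Enrichment changed over short distances within an exon. Among tested windows, 12 pairs were neighbours, 60 nt apart from start to start. In 6 pairs both were higher, and in the other 6 the calls differed, 2 of them in opposite directions. In exon 78 of Ubr4, a very large ubiquitin ligase, window 5268 held 48, 37 and 45 IP counts and 0, 7 and 1 input counts. The neighbouring window 5271 held 16, 14 and 8 IP counts and 306, 851 and 754 input counts, and was lower (-1.72 ± 0.52, log2 ± SE). Ralgapa1, a regulator of RAL GTPases, had the same arrangement in exon 34, with 6, 12 and 24 IP counts against 0, 0 and 1 in window 3708 and 21, 18 and 10 against 354, 866 and 706 in window 3705. In Msrb3, a methionine sulfoxide reductase, window 21 of exon 9 held 16, 11 and 20 IP counts and no input count. Window 18 next to it held 9 in each IP and 34, 220 and 206 in the inputs, and was not called (0.09 ± 0.38).

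The enriched stretches were short. With all windows at 20-nt steps, the run of windows that had counts in all 3 IPs around each gene's best higher window spanned a median of 110 nt (range 70 to 270, 53 genes), and 35 spanned at most 130 nt. It filled all of the exon that was listed in 12 genes and reached an end of it in 36. In the 41 genes with at least 3 listed later exons, the exon held a median of 87.8% of the gene's later-exon IP counts and 17.9% of its input counts, both over windows divisible by 3. These exons were chosen by a window called higher in the IP than in the input, so both the IP and the input shares are a description. Exon 16 of Eif3c held 139 of 175 IP counts (79.4%) and 11 of 103 input counts (10.7%). Exon 14 of Eif3a held 57.4% of IP and 0.4% of input counts, and exon 26 of Cfap65 held 55.9% and 1.23%. At 20-nt steps, however, the inputs had counts in Cfap65 exon 26 beside window 180, in windows not divisible by 3, with up to 49.98 CPM in input 1 at 20 nt from it.

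**Figure D3:**
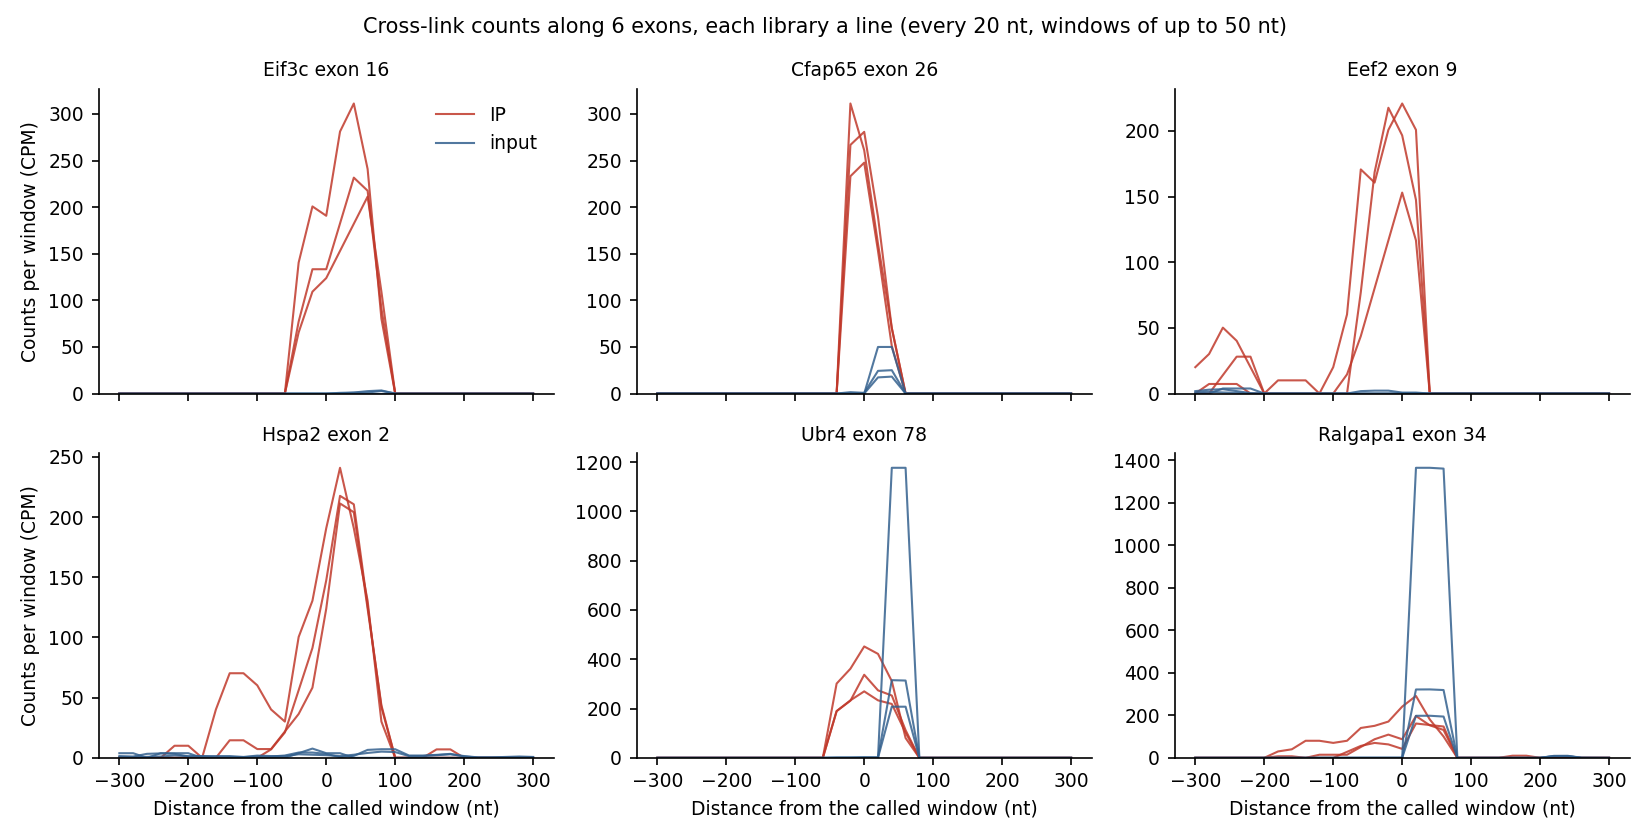
CPM in windows of up to 50 nt at 20-nt steps against distance in nt from the called window, for 6 exons, with 1 line per library. IP lines rise and fall within a short stretch, inputs stay low across it in Eif3c, Eef2 and Hspa2, and an input stack stands at its edge in Cfap65, Ubr4 and Ralgapa1, with input 1 the highest input.

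By exon class, higher windows outnumbered lower ones in exon 2, in exons 11 or more and in inner exons. Lower ones outnumbered higher ones in exons 3 to 10 and in last exons. Exon 2 had 13 higher and 3 lower of 19 tested, exon 3 had 4 and 8 of 12, and exons 4 to 5 had 7 and 10 of 18. Exons 6 to 10 had 14 higher and 15 lower of 32, and exons 11 or more had 23 and 18 of 45. In genes whose last listed exon was number 3 or higher, last listed exons had 8 higher and 21 lower of 33. Inner later exons had 44 higher and 31 lower of 81. These counts were not tested against each other. Most tested windows reached the minimum through 1 group alone, 60 in the IPs and 49 in the inputs. The balance of a class therefore also follows which group let its windows in. Beside them, exon 1 had 50 higher and 11 lower of 77 tested, and of all tested windows 35.4% were higher and 56.7% lower. Of the 19 windows of exon 2, 12 belonged to genes whose last listed exon was exon 2, and 9 of those were higher.

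Summed over all later exons of a gene, more genes could be compared. Of 261 genes with enough counts, 134 (51.3%) were higher in the IP and 41 (15.7%) were lower by edgeR's quasi-likelihood test with Benjamini-Hochberg adjustment over 3995 sums of all regions. Among all sums, 12.5% were higher and 9.81% lower. As with windows, 144 genes reached the count minimum in the IPs alone (125 higher) and 59 in the inputs alone (35 lower). The median difference of the 261 was 1.65 (log2), beside -0.02 for all sums. The number of lower genes was 7 of 366 tested, 9 of 399 and 16 of 324 without IP 1, 2 and 3. It was 17 of 155 and 14 of 160 without inputs 1 and 2. The number of higher genes was between 92 and 163 in these repeats.

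Among the 58 genes that reached the minimum in both groups, 9 were higher, 6 were lower and 43 were not called. This list was drawn up after its values were seen. The higher ones were Sbno1, 4930407I10Rik, Eif3a, Erich3, Plec, Msrb3, Akap12, Sptbn1 and Nsd1, from 2.90 ± 0.34 (log2 ± SE) for Sbno1 to 1.24 ± 0.36 for Nsd1. Sbno1, a helicase-like regulator, held 44, 49 and 62 IP counts and 14, 202 and 178 input counts. The lower ones were Pcsk5, Nos1, Rspo1, Wdr76, BC067074 and Tbc1d1.

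The largest rises in gene sums, beside those on chromosome 11 described further on, included those of Pes1, Acsbg2, Gje1 and Trim80. Acsbg2 (chr17:56843103-56874505) held 90, 66 and 96 IP counts and 0, 19 and 20 input counts over its later exons (6.99 ± 0.46). Trim80 (chr11:115440545-115448268), a TRIM-family gene, held 54, 28 and 40 against 0, 12 and 17 (6.32 ± 0.41). Pes1, a ribosome biogenesis factor, held 34, 15 and 40 against 0, 6 and 6 (7.09 ± 0.60), but in windows whose number leaves 1 on division by 3 its difference was -0.16. The largest falls were in Mtrr (-5.23 ± 0.97), Rnf144a (-4.89 ± 1.35), Rabl6 (-4.84 ± 0.96), Nucks1 (-4.38 ± 0.92) and Abra (-4.02 ± 0.96). Signal sat in few windows in both directions. The richest window held a median of 53.1% of the IP counts in higher genes and 95.5% of the input counts in lower genes.

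Introns of the same genes were read beside them. Of the 134 genes with higher later exons, 43 had an intron sum that could be tested. Of these 12 were higher and 2 lower, and 5 and 2 of 36 without the chromosome 11 genes. Of all 3668 tested intron sums 8.78% were higher and 9.41% lower.

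Gene lists were read from these sums. With the count minimum lowered to 3 counts, 1710 later-exon sums could be tested, with 389 higher and 200 lower and a median of 0.24. Among all sums at that minimum, 9.69% were higher and 8.29% lower. Both minimums are given for each list, since most members of most lists had too few counts for the stricter one. A member that reached a minimum through 1 group alone had a higher mean CPM in that group from the start, although not every such member was called. The counts called therefore describe these genes and not their lists.

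Of 28 translation factors 4 were tested, and these were called higher: Eif3c, Eef2, Eif3a and Eif4g3. Eif3a reached the stricter minimum in both groups, and the other 3 did so in the IPs alone. Eif3c held 58, 52 and 65 IP counts and 1, 66 and 36 input counts (5.03 ± 0.48, log2 ± SE), and Eef2 held 46, 30 and 48 against 5, 159 and 90 (3.23 ± 0.47). Eif3a held 41, 35 and 53 against 24, 252 and 224 (2.20 ± 0.36). Eif4g3, a scaffold of the cap-binding complex, held 21, 17 and 18 against 9, 167 and 81 (1.95 ± 0.49). At the lower minimum 11 members were tested, the same 4 were higher and none was lower. Summed over the list, later exons held 1567 ± 538 CPM in the IPs and 447 ± 185 CPM in the inputs (SD, n = 3). Of the 572 IP counts in that sum, Eif3c held 175, Eif3a 129 and Eef2 124. Of its 3134 input counts these 3 genes held 103, 500 and 254. The sum therefore describes the called genes and not the list as a whole. Cytosolic ribosomal proteins, the other arm of the translation machinery, had no member tested at the stricter minimum and 2 at the lower, neither called. Their later exons summed to 226 ± 63.9 CPM in the IPs and 233 ± 102 CPM in the inputs (SD, n = 3). With 86 IP counts and 1686 input counts in the list, 30 of 60 had no IP count.

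Of the germ line lists, those for late meiosis and for spermatids had members called at the stricter minimum. Of the late meiosis list 2 were tested, both having reached the minimum in the IPs alone. Hspa2 was higher (2.92 ± 0.34, adjusted p = 0.000873, edgeR) and Ldhc, the lactate dehydrogenase of sperm, was at 1.48 ± 0.50 (adjusted p = 0.0701). At the lower minimum 6 were tested and 3 were higher. Of the spermatid list 5 were tested. Odf1 (3.97 ± 0.43), Spata18 (3.48 ± 0.52) and Akap4 (1.96 ± 0.44), the scaffold of the sperm fibrous sheath, were higher, and each had reached the minimum in the IPs alone. In both groups it was reached by 2 members. Prm2, a protamine, was at -0.71 ± 0.56 and Odf2 at 0.36 ± 0.42, both not called. At the lower minimum 13 spermatid genes were tested and 4 were higher. Of the list for synapsis and recombination, none was tested at the stricter minimum and 2 at the lower, with none called.

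Of 41 axoneme and cilia genes, 7 were tested: Cfap65 (4.41 ± 0.41), Ccdc40 (3.43 ± 0.28) and Hydin (1.20 ± 0.28) were higher, and Dnah1 was lower (-2.73 ± 0.49). The 3 higher ones had reached the minimum in the IPs alone and Dnah1 in the inputs alone, while Dnah8 and Dnah10 reached it in both groups. The dynein heavy chains Dnah8, Dnah10 and Dnah17 were at 0.21, -0.05 and -0.16 and were not called. Ccdc40, which sets the spacing of axonemal repeats, held 34, 33 and 36 IP counts against 9, 80 and 83. Dnah1, an inner arm dynein, held 2, 2 and 1 against 29, 280 and 264. At the lower minimum 20 were tested, 4 higher and 1 lower.

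Genes of the piRNA pathway, which makes the small RNAs that guard the germ line, had 1 member tested. It was Tdrd7, a Tudor protein of germ granules, which reached the minimum in the IPs alone, with 12, 14 and 11 IP counts and 5, 42 and 42 input counts (2.88 ± 0.36). At the lower minimum 6 of 30 were tested and 2 were higher, Tdrd7 and Btbd18, an activator of piRNA precursor transcription. Of the list of germ granule and RNA-binding genes 8 were tested at the lower minimum and Ago2 was higher. Of the heat shock list, whose 2 tested members also reached it in the IPs alone, Hspa2 was higher and Hsp90aa1 was at 2.66 ± 0.85 (adjusted p = 0.0585, edgeR).

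The helicase's own gene lists only exon 1, so D1Pas1 has no member, and its exon 1 held 6, 10 and 5 IP counts and 4, 97 and 101 input counts. Its relatives Ddx3x, Ddx3y and Ddx4 together held 4 IP counts and 152 input counts in later exons and were not tested.

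**Figure D4:**
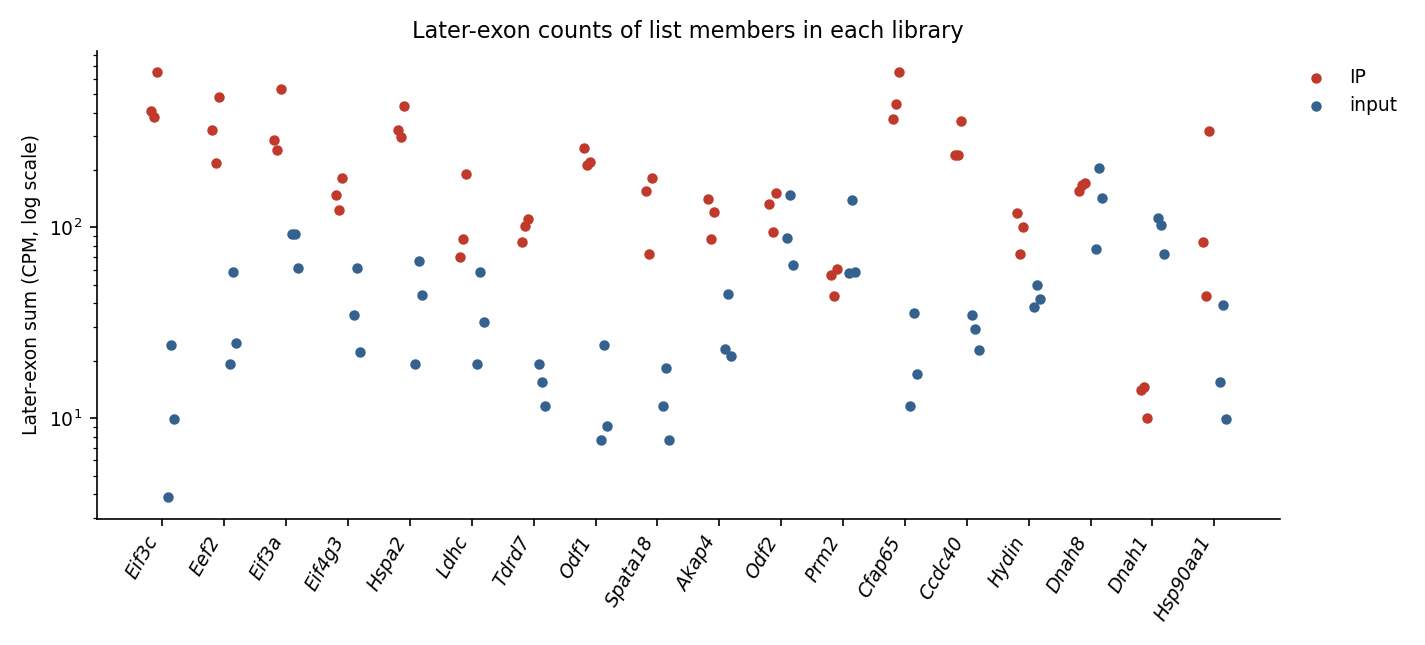
Later-exon sums in CPM (log axis) of 18 tested list members, with 3 IP points and 3 input points per gene. IP points lie above the inputs for the 4 translation factors at the left, and below them for Dnah1.

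Markers of somatic testis cells held few counts in the IPs. Germ cell markers summed to between 437 and 713 CPM in the IPs and between 112 and 309 CPM in the inputs, 2 of 10 were tested, and Dazl was at 0 in the IPs. Of the IP counts in that list, 130 of 205 were from Hspa2. Sertoli cell markers summed to 21.1 to 36.4 CPM in the IPs and 38.4 to 95.4 CPM in the inputs, with 4 of 10 at 0 in the IPs (Amh, Gata1, Rhox5 and Aard). Leydig cell markers summed to 20.1 to 21.9 and 36.0 to 62.3 CPM, with 3 of 8 at 0 (Cyp17a1, Hsd3b1 and Hsd3b6). Peritubular markers summed to 7.02 to 30.1 and 23.1 to 36.3 CPM, with 4 of 8 at 0 (Acta2, Tagln, Dcn and Col3a1). None was at 0 in the inputs. The 3 somatic lists held 11, 8 and 6 IP counts and 464, 314 and 231 input counts. The inputs together held 17.4 times the counts of the IPs, so a gene was more easily at 0 in the IPs. In the list for synapsis and recombination, 11 of 29 genes were at 0 in the IPs as well. The part of cell composition in the differences was not tested.

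The last listed exon was also compared with the inner exons within genes. The IP-to-input difference of the last listed exon was compared with that of the inner later exons in 252 genes, with library as a block. By edgeR's quasi-likelihood test, it was higher in 18 genes, 7.14% of those tested, and lower in 46, 18.3% of those tested, with a median of -1.90 (log2) that was -0.96 with DESeq2. The counts of 18 and 46 were not tested against each other, and genes could enter through a high IP count in their inner exons, which hold more windows. Among the 46, 25 had no IP count at all in the last exon, and 41 were also higher as gene sums. The number of lower genes was 24 of 358 tested without IP 1, 24 of 315 without IP 3, 10 of 152 without input 2 and 14 of 164 without input 3. The number of higher genes was 11 of 149, 4 of 152 and 4 of 164 without inputs 1, 2 and 3.

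Trim80 had no IP count in its last listed exon and 54, 28 and 40 counts in the inner ones, while its inputs held 0, 6 and 8 counts in the last and 0, 6 and 9 in the inner exons (adjusted p = 1.95e-07, edgeR). Itgb5, an integrin chain, held 0 IP counts in the last and 45 in the inner exons, against 20 and 15 input counts. Senp2, a SUMO protease, held 0 and 30 against 50 and 35. Acsbg2 (adjusted p = 0.0435) and Pes1 (adjusted p = 0.0429) were also lower, but their last exons held only 3 and 2 input counts.

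In the other direction, Usp40 (chr1:87945119-88008582) held 33, 27 and 21 IP counts in its last listed exon and 0 in all its inner later exons. Its inputs held 0, 5 and 4 counts in the last and 0, 16 and 22 in the inner exons (adjusted p = 7.46e-12, edgeR). Cog6, a Golgi tethering subunit, held 33 IP counts in the last and 0 in the inner exons, against 17 and 44 input counts. Fam83b and Zbtb7b, a transcription factor of T cells, were also among the largest. In these 4 genes the inner exons had no IP count, so no fold is given.

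On chromosome 11, a run of genes of 1 strand was enriched together. It was found after the values were seen, by the highest 1-Mb bin of 852. The 8 genes on the minus strand at chr11:109139291-109996274 were E030025P04Rik, Rgs9, Gm11696, Slc16a6, Wipi1, Fam20a, 1700012B07Rik and Abca8b. The strand was read from the order of exon and window numbers. Their later exons summed to 3847, 1312 and 3976 CPM in IP 1 to 3 and 42.3, 46.4 and 41.8 CPM in the inputs, 70.0-fold higher on average. IP 2 was the lowest of the IPs and still above every input. All 7 of these genes that were tested were higher, with Rgs9 (chr11:109225348-109298181), a brake on G protein signalling known from the retina, at 108, 43 and 85 IP counts against 1, 17 and 15 (7.07 ± 0.51).

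Their introns were 81.4-fold higher, at 29894, 10974 and 30662 CPM against 242, 367 and 270 CPM, and exon 1 was 75.2-fold higher. The 5 plus-strand genes between them, Gna13, Amz2, Arsg, Gm11685 and Prkar1a, held 35.1, 21.9 and 30.1 CPM in later exons of the IPs and 42.3, 39.8 and 33.3 CPM in those of the inputs. None of the 5 was tested. The sum over the plus-strand genes was in no IP above the highest input, although Arsg, at 1 count in each of IP 1 and IP 2, and Prkar1a, at 1 count in IP 3, stood above their inputs in CPM. All genes of the interval, on both strands together, held 2.71%, 1.06% and 2.51% of all later-exon IP counts and between 0.0603% and 0.0638% of the input counts.

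**Figure D5:**
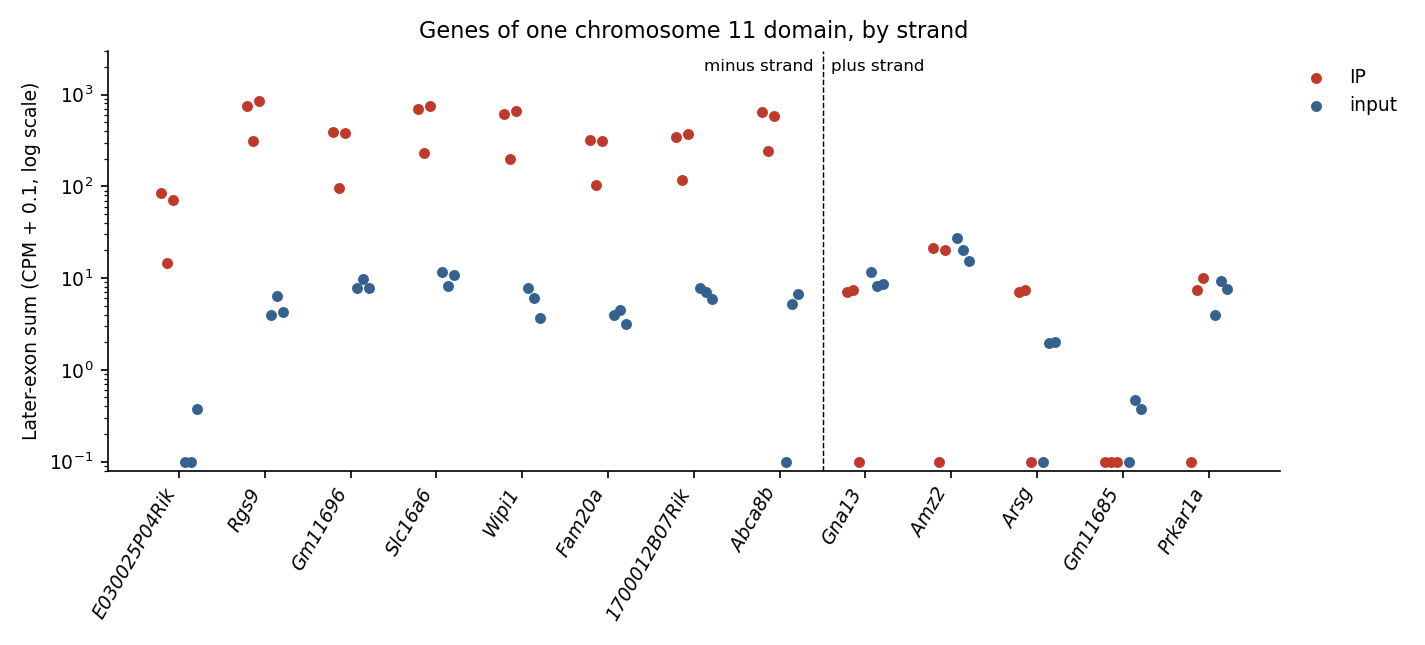
Later-exon sums of each gene of the chromosome 11 interval in the 3 IPs and 3 inputs (CPM + 0.1, log axis), split by strand and then in order of position. IP points of the minus-strand genes stand above the inputs, and those of the 5 plus-strand genes lie in or near the range of the inputs.

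RNA-seq gave a second view of genes with enriched later exons. D1Pas1 itself was at 55.3, 74.7 and 124 CPM in WT and 15.8, 24.5 and 22.04 CPM in KO at day 18. At day 28 it was at 248, 203 and 161 CPM in WT and 38.1, 48.8 and 50.5 CPM in KO (-2.74, adjusted p = 0.000181, edgeR). In bulk testis, fewer cells of a type and less RNA per cell cannot be told apart.

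At day 18, 111 genes with higher later exons were tested in RNA. Of these 34 (30.6%) were lower in KO and 1 (0.901%) was higher. Of all genes 15.0% were lower and 3.19% higher, and of all genes with a tested later-exon sum 24.4% were lower. At day 28, 67 of 121 (55.4%) were lower and 17 (14.0%) higher, beside 31.6% and 24.6% of all genes and 49.4% and 14.7% of genes with a tested sum. The enriched genes were themselves 111 of the 217 genes with a tested sum at day 18 and 121 of the 231 at day 28. The shares of the 2 sets are therefore not independent, and the difference between them was not tested. Scaling by library totals moved the median of all genes by 0.12 (log2) at day 18 and 0.53 at day 28. Under it 30 of the enriched genes (27.0%) were lower and 6 (5.41%) higher at day 18, beside 12.8% and 10.8% of all genes. At day 28, 60 (49.6%) were lower and 30 (24.8%) higher, beside 24.1% and 41.3% of all genes. Among genes with a tested sum, this scaling gave 21.7% lower and 8.76% higher at day 18, and 41.6% and 31.2% at day 28. With the main scaling, 1 of 28 genes with lower later exons was lower at day 18, and 6 of 31 were lower and 6 higher at day 28.

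Several named genes had far less RNA in KO at day 28. Odf1 went from 1235, 881 and 636 CPM in WT to 6.29, 0.562 and 1.06 CPM in KO (-9.06 ± 1.05, log2 ± SE). Acsbg2 went from 27.3, 73.8 and 45.8 CPM to 0.280, 0.0562 and 0 CPM. Akap4, Spata18, Trim80, Cfap45 and Ccdc40 fell by 8.99, 6.90, 7.46, 5.43 and 4.20 on the log2 scale. The KO values lay below every WT value in Odf1 and Acsbg2.

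RNA of the translation factors was then read in the same way. The fitted changes use TMM scaling and the CPM use library totals, which at day 28 lie 0.53 (log2) apart at the median gene. Eif3c went from 314, 324 and 280 CPM to 214, 204 and 209 CPM (-1.12 ± 0.21) at day 28 and was not called at day 18 (-0.20 ± 0.10). Eef2 (-1.13) and Eif4g3 (-1.01) also fell at day 28. Eif3a was not called at day 18 (0.16 ± 0.15) or at day 28 (-0.12 ± 0.22), when its CPM were 242, 204 and 225 in WT and 282, 283 and 351 in KO. Hspa2 fell at both ages (-0.87 and -1.33), and Tdrd7 fell at day 28 (-1.52). Hnrnpul2 rose at day 28 from 32.8, 34.3 and 56.1 CPM to 101, 88.7 and 110 CPM (0.77 ± 0.20). Usp40, Smg1 and Rgs9 were not called at either age. WT testis at day 28 expressed the eCLIP-higher genes at a median of 123 CPM and those with lower later exons at 7.63 CPM. The median was 87.2 CPM for all genes with a tested later-exon sum, which include both, and 4.17 CPM for all genes.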

How the data were processed

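The eCLIP tables hold counts of cross-links per window, as deposited, and the number of cross-linked positions in each window. Per the labels the libraries followed the Yeo group's eCLIP protocol. The submitters' processing notes list cutadapt 3.4, HTSeq and build mm10 without saying in which step each was used. The sources used here give no aligner and no annotation version. The RNA-seq tables hold estimated counts per gene, as deposited, which were rounded to whole numbers. Windows have no coordinates in the tables, so no sequence is shown. Symbols came from RefSeq and gene name tables (42898 of 43069 genes matched).

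Counts were taken from windows with number divisible by 3 and tested with edgeR 4.0.16 (quasi-likelihood, TMM, Benjamini-Hochberg, threshold 0.05) over all windows, over gene sums of exon 1, later exons and introns, and for last against inner exons. Rows were kept at a mean of at least 49.7 CPM. RNA-seq of each age was fitted separately with filterByExpr. Shares were compared by exact permutation tests. Alternatives were library totals, DESeq2 1.42.0, other filters, other windows, a replicate block and leaving out each library. The fits were tested on simulated data.

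The members and lists were chosen with earlier results of these data known. Named genes were the 10 largest rises and 5 largest falls of windows, the 10 genes with most higher windows, the 10 and 5 largest of gene sums, 5 each way for last exons, and up to 4 members per list with the smallest p. Further genes, such as Ubr4 and Ralgapa1, were named after their values were seen. Predicted gene models were mostly counted only. Same-numbered IP and input libraries deviated from their group means with correlations of 0.04, -0.18 and -0.04, so the numbers were not taken as pairs. Some results are not reported here.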

Additional observations from a re-analysis of the deposited data

How the results depend on the processing

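Over 862 repeats of 69 named values under the alternatives, 792 kept direction and side of the threshold, 55 lost the call, 12 gained it and 3 reversed. The reversed ones were Dpysl3 exon 11 window 1206, at -2.45 with no filter and -0.17 with a 3-count filter, and the Pes1 sum, at -0.16 in windows leaving 1 on division by 3. Filters set the counts, because they decide how many rows are tested. Higher and lower windows numbered 96 and 71 with filterByExpr, 105 and 8582 with no filter and 338 and 223 at 3 counts. Higher and lower gene sums numbered 142 and 67, 360 and 659, and 389 and 200 under the same settings. Genes with a higher or lower last exon numbered 14 and 11 with no filter, 65 and 89 at 3 counts and 30 and 50 with DESeq2. The 3-count filter was added after seeing the data.

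The log2 ratio of later exons to exon 1 moved from -0.58 to -0.36 when positions were counted, and to -0.36 without the 100 windows with most counts. Without those windows exon 3 stood at -0.164, exons 4 to 5 at -1.89 and exons 11 or more at 0.644 percentage points. Exon 3 was at 0.254 when positions were counted. In windows leaving 1 on division by 3, exon 2 was at 0.346 and exons 4 to 5 at -0.999. The cause was not tested. RNA of enriched genes was higher in KO in 6 (library totals) and 2 (DESeq2) genes at day 18, and in 30 at day 28 with library totals. Of all genes 10.8%, 5.71% and 41.3% were higher under the same settings.

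Leaving out each library gave 48 to 77 higher and 21 to 87 lower windows, 92 to 163 higher and 7 to 37 lower gene sums, and 4 to 27 higher and 10 to 49 lower last exons. The count minimum moved in each repeat, with 73 to 190 later-exon windows and 155 to 399 gene sums tested. The difference in later-exon share ranged from -0.0289 to 1.66 percentage points, that in exons 11 or more from -0.736 to 0.0956 and the last-to-inner difference from -0.276 to -0.113. The other share classes and ratios kept their sign. RNA calls among the enriched genes ranged from 0 to 4 higher at day 18 and from 8 to 18 at day 28. With the replicate number as a block, 61 windows were higher and 51 lower, and 132 gene sums were higher and 56 lower. The share comparisons kept their differences under the block. No paired analysis was possible for RNA-seq because WT and KO columns share no replicate numbers. Depth limits the IPs most, where 1 count is worth at least 7.02 CPM.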
